A study of Mus musculus with 11 samples.

Results

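In 3 of the 11 nucleus accumbens shell libraries, m47, m73 and m57, almost no reads were counted on Atp6v0c-ps2 and Gm13443, which are near-identical copies of genes of chromosome 17. The 3 libraries were chosen by these measured values and set beside the other 8, m115, m49, m74, m101, m44, m61, m89 and m83. On Atp6v0c-ps2 the highest of the 3 was m73, at 0.378 on the counts-per-million scale (CPM), and the lowest of the 8 was m115, at 23.3 CPM. On Gm13443 the highest of the 3 was m47, at 0.0938 CPM, and the lowest of the 8 was again m115, at 2.64 CPM. Since the split was made on these counts, every value below is a description and nothing was tested. The copies themselves lie on chromosomes 2, 6, 11 and 13, and it is their parent genes that lie on chromosome 17.

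The study set out to measure how reduced signalling by the retinoic acid receptor Rarb changes transcription in mice that carry a Huntington's disease mutation (R6/1, a transgene of the mutated start of human huntingtin). All 11 libraries are polyA RNA of tissue punched from 300 µm brain sections of mice aged 8 weeks, on a mixed background written as CBA/C57BL6J/129svEmx. The labels read here give neither the R6/1 nor the Rarb genotype of an animal, nor the share of its genome from each strain, so no library was placed in a group. How the split falls over the genotypes therefore cannot be told, and the strain origin of any locus was not tested. Levels are CPM scaled by trimmed mean of M-values (TMM), and differences are the median of the 3 minus the median of the 8 on log2(CPM + 0.5). In the balance of long against short transcripts, given further on, m115 and m89 stood with the 3 and apart from the other 6. Counts of genes are also given without m115, which also lay with the 3 at some copies and window genes. The library m89 stays in those counts, so they do not take this balance out. A gene is said not to overlap where each of the 3 libraries lay above, or each lay below, all of the 8.

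A processed pseudogene is a copy of a spliced mRNA that was written back into the genome, so it lacks the introns of its parent gene and often lies on another chromosome. Where copy and parent differ by a few bases, a short read that lies wholly inside the sequence they share differs between them only at those bases. Reads that reach into sequence held by only 1 of them were not looked at apart. The middle of mouse chromosome 17 holds the major histocompatibility complex (MHC), whose class I genes present peptides to T cells, and it is known for many sequence differences between inbred strains.

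The parent and copy sequences below are of GENCODE M21 transcripts on mm10. They show how few bases differ between a gene and its copy over a stretch that both hold. The stretches are of 3 copies near 0 in the 3 libraries and of 1 that was also at 0 in m115. Each run is 121 bases of the parent's coding sequence, and capitals mark the bases that differ. Parent intervals that span an intron give the outer ends. Substitutions are written as the parent's base, the position counted from 1 at the 5′ end of the copy, and the copy's base.
Atp6v0c, chr17:24164792-24169235, minus strand: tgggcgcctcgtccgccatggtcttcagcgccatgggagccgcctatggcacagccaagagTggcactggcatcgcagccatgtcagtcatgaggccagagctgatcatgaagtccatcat
Atp6v0c-ps2, chr6:37806135-37806255, plus strand: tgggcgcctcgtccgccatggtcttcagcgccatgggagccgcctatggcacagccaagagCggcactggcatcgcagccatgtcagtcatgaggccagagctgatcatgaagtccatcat
Rps18, chr17:33952059-33952281, minus strand: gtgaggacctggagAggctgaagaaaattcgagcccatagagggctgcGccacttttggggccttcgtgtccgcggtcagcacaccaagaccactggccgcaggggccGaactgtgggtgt
Gm10260, chr13:97760146-97760266, minus strand: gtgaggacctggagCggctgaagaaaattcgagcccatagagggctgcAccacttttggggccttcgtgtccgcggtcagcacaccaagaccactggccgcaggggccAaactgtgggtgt
Rnps1, chr17:24418612-24420325, plus strand: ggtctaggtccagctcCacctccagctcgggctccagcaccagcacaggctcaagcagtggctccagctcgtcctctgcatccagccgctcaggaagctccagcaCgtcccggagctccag
Gm9825, chr6:7983109-7983229, minus strand: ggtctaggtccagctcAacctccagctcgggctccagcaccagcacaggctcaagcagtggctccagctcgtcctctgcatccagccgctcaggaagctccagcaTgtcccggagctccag
Rps28, chr17:33823208-33823328, minus strand: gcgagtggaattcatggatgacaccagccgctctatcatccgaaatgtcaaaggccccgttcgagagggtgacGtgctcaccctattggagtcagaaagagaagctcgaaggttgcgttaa
Gm10263, chr13:73317943-73318063, plus strand: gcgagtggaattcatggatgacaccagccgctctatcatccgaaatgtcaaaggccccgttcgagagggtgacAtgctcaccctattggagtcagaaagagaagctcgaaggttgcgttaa

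Over its whole length of 465 bases, Atp6v0c-ps2 differed from Atp6v0c by T111C alone, which leaves the amino acid the same. Gm10260 carried T230C, A381C, G415A, G475A and G521C against Rps18, of which 4 are in the coding sequence and 2 change an amino acid. Gm9825 carried 5 against Rnps1, with C260T the only 1 that changes an amino acid. Hmga1b carried A657G, A784G and G1246T against Hmga1, all outside the coding sequence. Gm14292 carried A249G, C273T and A348G against Wtap, with no amino acid changed. These sequences are those of the reference genome, and the alleles of the 11 animals were not read here.

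Atp6v0c makes the membrane subunit c of the vacuolar proton pump. Atp6v0c-ps2, at chr6:37806086-37806550, stood at 0.156 CPM in m47, 0.378 in m73 and 0.289 in m57. In the others it stood at 23.3 CPM in m115, 34.1 in m49, 37.1 in m74, 34.4 in m101, 26.8 in m44, 43.7 in m61, 24.9 in m89 and 35.2 in m83. No library lay between 0.378 and 23.3 CPM. Of the counts on Atp6v0c and its copy together, the copy held 0.0824% to 0.166% in the 3 libraries and 11.8% to 14.6% in the 8. The parent itself ranged from 189 to 227 CPM in the 3 and from 172 to 292 CPM in the 8, which overlap, and so did the sum of both.

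Rps18 encodes a protein of the small ribosomal subunit. Its copy Gm10260, at chr13:97760072-97760632, is annotated as protein-coding. It stood at 0.375 CPM in m47, 0.0472 in m73 and 0.0289 in m57, against 14.3 in m115, 15.2 in m49, 26.2 in m74, 18.6 in m101, 21.6 in m44, 25.5 in m61, 13.5 in m89 and 23.1 in m83. Its share of the pair was 0.0526% to 0.679% in the 3 and 21.96% to 28.2% in the 8, the highest share of any of these copies. Rps18 ranged from 48.9 to 54.9 CPM in the 3, inside its range of 36.8 to 90.7 CPM in the 8. Rps18 overlaps Vps52 on the other strand, and Gm10260 overlaps the antisense gene Gm26619. No source here states the strand setting of the counting, and reads of such partners cannot be told apart.

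Glo1 encodes glyoxalase, which detoxifies methylglyoxal. Its copy Gm13443, on chromosome 2, had 3 reads in m47, 0 in m73 and 1 in m57. In the 8 libraries it had 106 reads in m115, which is 2.64 CPM, and from 5.31 CPM in m83 to 9.77 in m49 in the other 7. A count of 0 is taken here to allow up to 3 reads, which is 0.0709 to 0.0938 CPM in the 3 libraries. The share of the pair was 2.18% in m115 (Wilson 95% interval 1.81 to 2.63) and 4.84% to 7.99% in the other 7, so m115 lay below them beyond counting error. Such spread among the 8 was not confined to m115. By the same intervals m49 (7.23 to 8.59) and m74 (7.26 to 8.78) lay above the rest of the 8, of which m89 reached highest (5.14 to 6.76). Glo1 ranged from 78.2 to 92.7 CPM in the 3 and from 85.1 to 132 CPM in the 8, with a difference of -0.33 and overlapping ranges.

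The other copies with no overlap belonged to Rnps1, a splicing factor of the exon junction complex, to Hmga1, a chromatin protein that binds AT-rich DNA, and to Wtap, a subunit of the enzyme complex that methylates adenosine in mRNA. Gm9825, the copy of Rnps1 at chr6:7982541-7983383, ranged from 0 to 0.188 CPM in the 3 and from 3.01 to 5.51 in the 8. Hmga1b, at chr11:120762794-120764419, ranged from 0 to 0.0625 CPM and from 2.24 to 4.21 CPM. Gm14292, the copy of Wtap at chr2:179177425-179177880, ranged from 0.0472 to 0.156 CPM and from 0.823 to 2.00 CPM. Wtap starts at chr17:12966796, which is outside the 20 to 40 Mb stretch that holds the other 5 parents. The plot of copy levels shows the 3 libraries together at the bottom for each of these 6 copies.

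**Figure D1:**
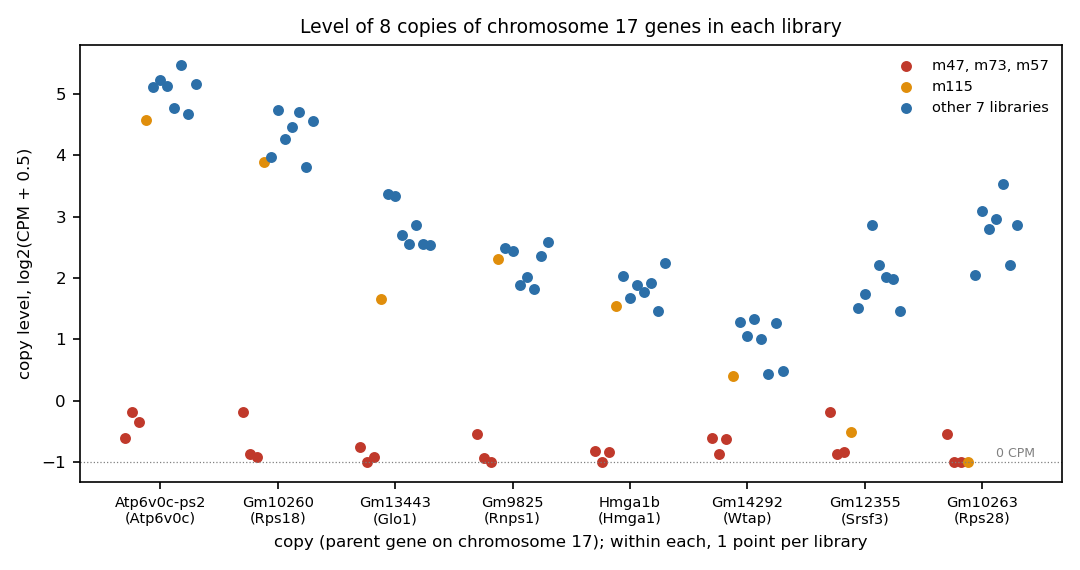
Level of 8 copies on the log2(CPM + 0.5) scale, with 1 point for each of the 11 libraries and the parent gene in brackets. For the first 6 copies the red points (m47, m73, m57) lie below all others, and for Gm12355 and Gm10263 the orange point (m115) lies among them.

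The parents and the sums of parent and copy overlapped between the 3 and the 8 for each of the 6 pairs. Hmga1 stood at 15.5 to 16.4 CPM in the 3 and 11.8 to 17.5 in the 8. Rnps1 stood at 113 to 127 CPM and 105 to 133 CPM, and Wtap at 68.97 to 82.0 CPM and 66.2 to 81.3 CPM. Shares of the pair separated the libraries in the same way. Hmga1b held at most 0.402% in the 3 and 13.8% to 21.7% in the 8, Gm9825 at most 0.164% and 2.21% to 4.34%, and Gm14292 at most 0.209% and 1.02% to 2.80%. In the 8 libraries the share of Atp6v0c-ps2 moved by 1.23 times from lowest to highest and that of Gm10260 by 1.29 times, while that of Gm13443 moved by 3.66 times. The intervals cover counting error only, since the reads carry no molecular identifiers.

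**Figure D2:**
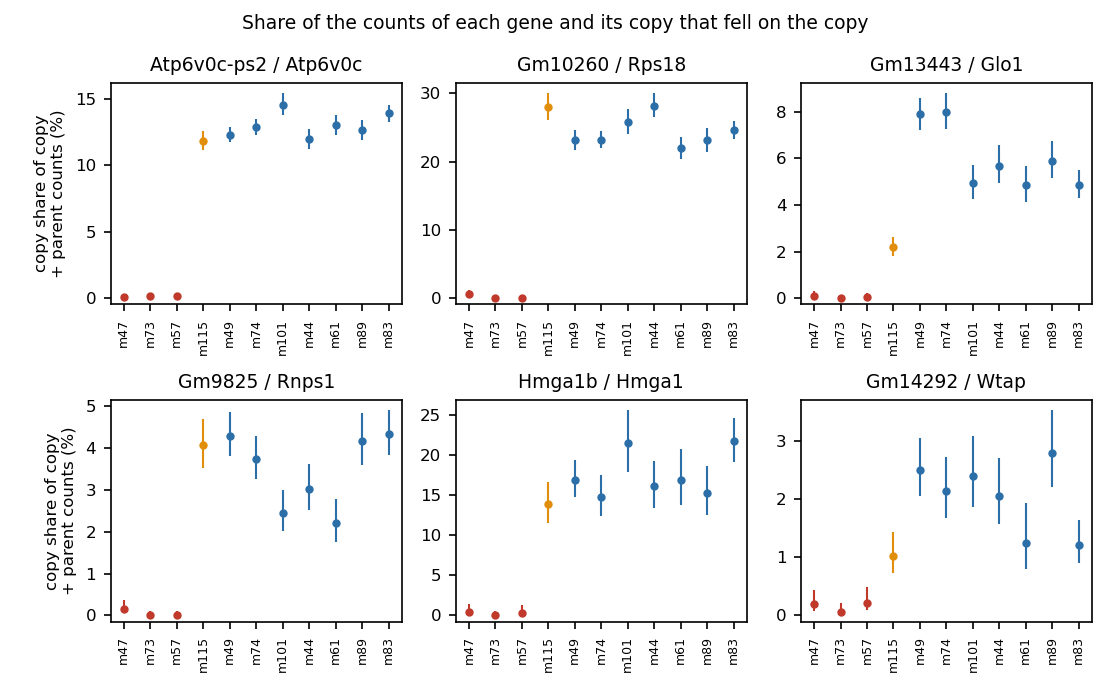
Share of the summed counts of a copy and its parent that fell on the copy, in percent, with Wilson 95% intervals, for each of the 11 libraries. The 3 libraries in red lie at or near 0 in each panel, and m115 (orange) is the lowest of the 8 for Gm13443 at 2.18%. It is also the lowest of the 8 for Atp6v0c-ps2 (11.8%), Hmga1b (13.8%) and Gm14292 (1.02%), where its interval overlaps those of others of the 8.

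The library m115 was low on further copies, named here after their values were seen. Gm12355, a copy of the splicing factor gene Srsf3, stood at 0.0472 to 0.375 CPM in the 3, at 0.199 in m115 and at 2.26 to 6.76 CPM in the other 7. Gm10263, a copy of the ribosomal protein gene Rps28, stood at 0 to 0.188 CPM in the 3, at 0 in m115 and at 3.65 to 10.99 CPM in the other 7. Along chromosome 17, m115 thus lay with the 8 at the copies of Atp6v0c, Rnps1 and Hmga1, with the 3 at that of Srsf3, at a lower share than the other 7 at that of Glo1, with the 3 at that of Rps28, and with the 8 at that of Rps18. Rps28 starts at chr17:33819027 and Rps18 at chr17:33951999.

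In all, 69 single-exon genes or pseudogenes past the filter of at least 1 CPM in 3 libraries matched a multi-exon coding gene with at least 97% identity over at least 80% of their length. Of these, 6 did not overlap, which is 8.7%, against 4.36% of all genes tested. Among the 6 are Atp6v0c-ps2 and Gm13443, by which the 3 libraries were chosen. The separation of these 2 was set in advance and raises the 8.7%, so the 2 shares are not alike. All 6 had their parent on chromosome 17, which supplied 11 of the 69 copies, and 0 of the 58 copies with parents elsewhere separated the 3 from the 8. The copies were part of what defined the split, so this count is a description. Copies near 0 in some libraries also had parents elsewhere: 15 of the 58 had at least 1 library at or under 3 reads, as had 8 of the 11. This count does not ask for a high level in the other libraries, and Gm18562, for example, reached at most 1.13 CPM. It also misses copies with a wide range but more than 3 reads in every library. With parents elsewhere, these include Gm13394 (0.125 to 110 CPM) and Gm15459 (0.355 to 106 CPM), and on chromosome 17 Atp6v0c-ps2. With copies of at least 0.5 CPM in 3 libraries, 2 copies with parents on other chromosomes did not overlap either. That looser filter takes in more copies than the 69, so these 2 are not out of the 58.

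**Figure D3:**
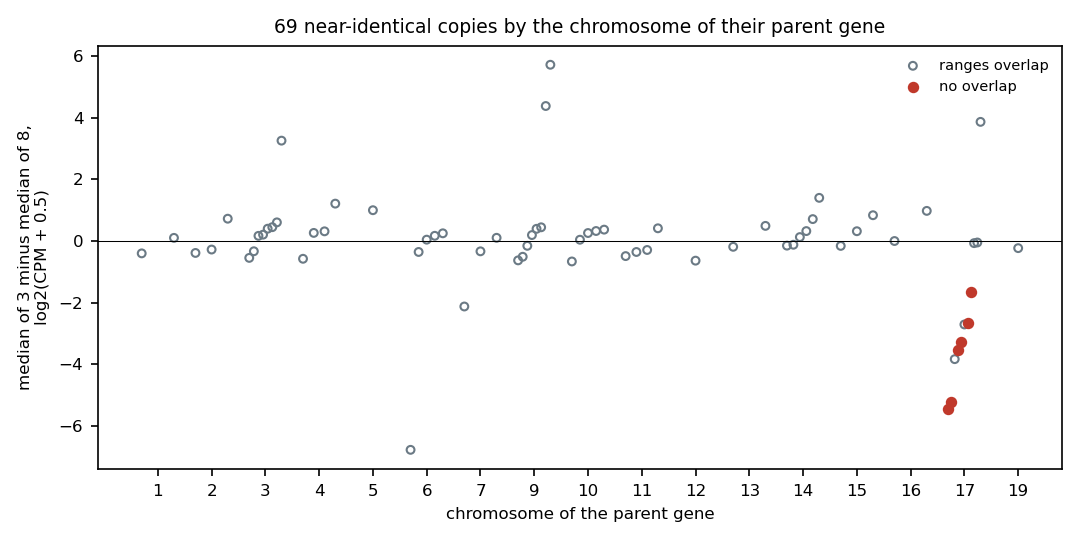
Difference between the median of the 3 and the median of the 8 libraries on log2(CPM + 0.5), for 69 copies placed by the chromosome of their parent gene. The 6 filled red points, which do not overlap, are all on chromosome 17. Open points far from 0 on chromosomes 6 and 9, and Gm6969 on chromosome 17, are copies that differ between libraries along other lines. Gm12355 and Gm10263, also open on chromosome 17, were low in the 3 and in m115.

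The 3 libraries were then read over the genes of chromosome 17 from 20 to 40 Mb. Of 356 tested there, 16 did not overlap, or 4.49%, which is near the 4.36% of all 15388 genes tested. The direction was less one-sided than elsewhere: 8 were lower in the 3 (2.25%, against 0.643% of all genes) and 8 were higher (2.25%, against 3.72%). The median difference over the window was -0.14, beside -0.02 over all genes. Window genes were also shorter, with a median exon length of 3440 bases beside 4349 over all genes, and length went with direction, as given further on. The part of length in the direction of the window genes was not tested. Medians at least 1 apart with no overlap were seen for 1 gene in the window, beside 0.845% of all genes. By their share of genes with no overlap, the window ranked 64 of 139 windows of 20 Mb that held at least 20 tested genes, so 45.3% of them had a higher share. The highest share, 21.4%, was at 40 to 60 Mb of chromosome 2.

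Within the window the lower genes lay toward its end. From 20 to 25 Mb, 5 of 78 genes did not overlap and 0 were lower in the 3. From 25 to 30 Mb it was 3 of 108, 1 of them lower, and from 30 to 35 Mb 3 of 108, 2 of them lower. From 35 to 40 Mb, which holds MHC class I genes, it was 5 of 62, and all 5 were lower. On the rest of chromosome 17, 9 of 351 genes did not overlap, and 0 were lower. Gene counts depended on single libraries: without m115 the window held 51 genes with no overlap of 354 (14.4%), while the rest of the genome held 1648 of 14943 (11.03%). Leaving out any library makes it easier for a gene not to overlap. As m115 was picked for lying with the 3 at some window genes, a rise in the window without it was partly set in advance. Of the 3, without m57 the window held 38 genes (10.7%) and the rest of the genome 1684 (11.3%). Without m47 it was 25 (7.04%) and 1092 (7.31%), and without m73 26 (7.32%) and 1115 (7.453%). Without m57, m47 or m73 the window's share was near that of the rest of the genome.

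**Figure D4:**
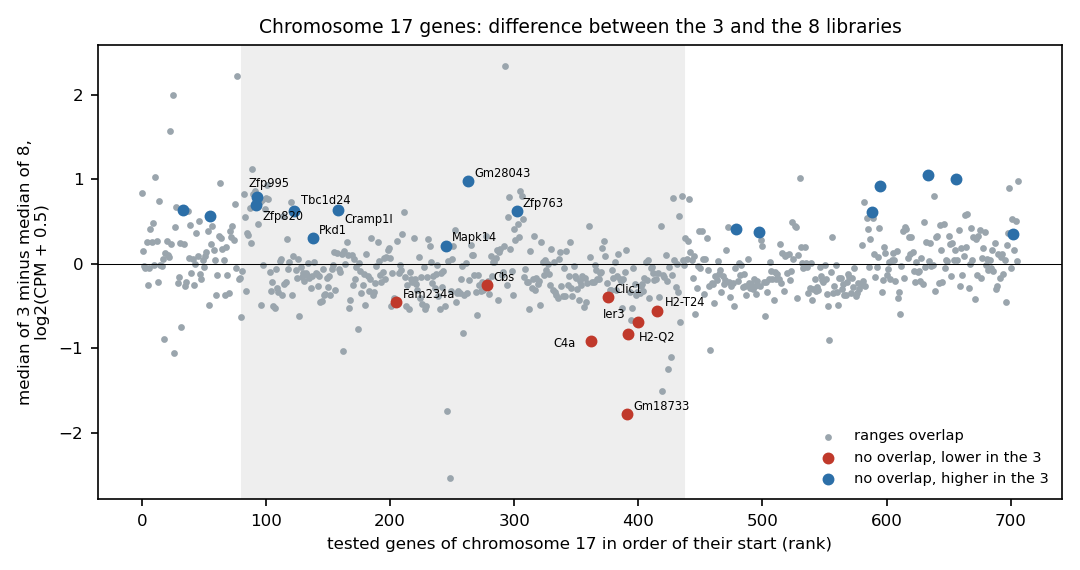
Each point is 1 tested gene of chromosome 17, in order of its start (x axis, rank), with the difference of medians of the 3 and the 8 libraries on log2(CPM + 0.5) (y axis); the grey band is the 20 to 40 Mb window. The 8 red points, lower in the 3 with no overlap, all lie in the band, with Gm18733 lowest at -1.78.

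Among the lower genes, Gm18733, an unprocessed pseudogene at chr17:35278176-35279414 between MHC class I genes, had 0 reads in m47, m73 and m57. In the 8 it stood at 1.37 CPM in m115, 1.09 in m49, 1.05 in m74, 1.34 in m101, 0.784 in m44, 2.31 in m61, 1.02 in m89 and 2.33 in m83. The lowest of the 8 was at least 8.36-fold higher than 3 reads would give in any of the 3. By the gap between the ranges it ranked sixth of all genes tested, behind 5 of the copies. C4a, a gene of the complement C4 family, stood at 1.01 to 1.16 CPM in the 3 and 1.46 to 4.81 CPM in the 8. H2-Q2, an MHC class I gene, stood at 0.469 to 0.732 CPM in the 3 and 0.897 to 2.46 CPM in the 8. H2-T24, another class I gene, stood at 1.99 to 2.36 and 2.45 to 5.01 CPM. These levels are low, and class I genes share sequence, so the counting could split their reads.

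Clic1, an intracellular chloride channel protein, stood at 7.68 to 8.53 CPM in the 3 and 9.43 to 18.4 in the 8. Ier3, an immediate early gene, stood at 3.83 to 4.10 CPM and 4.25 to 8.93 CPM. Cbs, the enzyme that joins homocysteine and serine, stood at 14.6 to 21.9 CPM in the 3 and 21.9 to 27.4 CPM in the 8, with a gap close to 0. Fam234a stood at 12.8 to 15.6 CPM and 15.7 to 27.1 CPM. Ier3, Cbs, H2-T24 and Fam234a each left less than 0.05 between the ranges on the log2 scale.

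Among the higher genes were 3 zinc finger genes. Zfp820 stood at 1.25 to 1.54 CPM in the 3 and 0.309 to 0.913 CPM in the 8, and Zfp995 at 6.76 to 8.38 CPM and 2.47 to 5.96 CPM. Zfp763 stood at 20.2 to 22.1 CPM and 11.5 to 20.1 CPM, with m115 at the top of the 8. Tbc1d24, a regulator of vesicle traffic, stood at 123 to 140 CPM and 76.8 to 114 CPM. Mapk14, the p38 alpha kinase, stood at 97.8 to 112 CPM and 82.98 to 96.5 CPM. Pkd1, which encodes polycystin-1, stood at 170 to 226 CPM and 36.2 to 167 CPM, with m61 alone at 36.2. Cramp1l stood at 45.1 to 50.5 CPM and 21.1 to 42.6 CPM. Gm28043, at 1.36 to 1.97 CPM and 0.0887 to 1.02 CPM, overlaps Gm28052, Rnf8 and Cmtr1 on its own strand. With totals in place of TMM, the ranges of Cramp1l, Pkd1, Mapk14, Fam234a, Cbs and Zfp763 overlapped, and the window then held 10 lower and 5 higher genes.

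**Figure D5:**
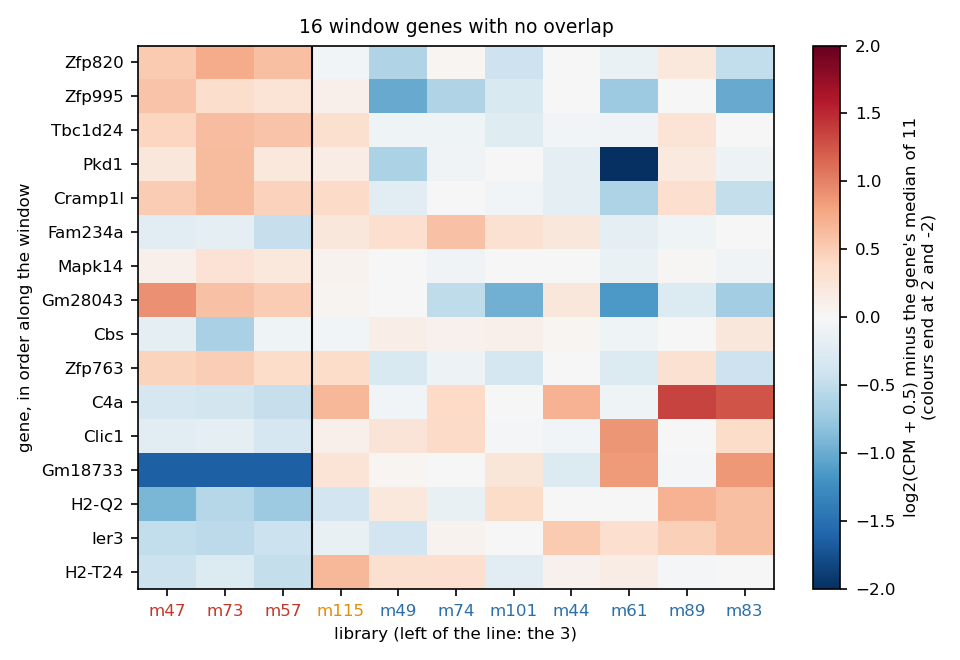
Colour gives log2(CPM + 0.5) minus the gene's median over the 11 libraries, for the 16 window genes with no overlap, in order along the chromosome; the 3 libraries stand left of the line. Gm18733 is the darkest blue in all 3, and m115 and m89 share the red of the 3 at Tbc1d24, Cramp1l and Zfp763.

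Of the 9 window genes whose medians lay at least 1 apart, whether or not they overlapped, 7 were lower in the 3. In 6 of these 7, all but Gm18733, m115 lay below the lowest of the other 7 libraries, which is why the ranges overlapped. They are named here after their values were seen. Pnpla1, of the patatin-like phospholipase family, stood at 0.750 CPM in m47, 0.898 in m73, 1.21 in m57 and 0.349 in m115. In the other 7 libraries it stood at 3.86 CPM in m101 and from 6.81 to 8.82 CPM in the rest. Znrd1, a subunit of RNA polymerase I, stood at 11.5, 13.6 and 12.5 CPM in m47, m73 and m57, at 12.0 in m115 and at 17.5 to 39.0 CPM in the other 7. H2-T10, an MHC class I pseudogene in the annotation, stood at 0.953 to 1.42 CPM in the 3, at 1.32 in m115 and at 3.41 to 5.84 CPM in the other 7. These 3 genes put m115 with the 3 libraries, at starts of chr17:28858411 for Pnpla1, chr17:36115876 for H2-T10 and chr17:36954356 for Znrd1.

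Mapk13, the p38 delta kinase, stood at 0.165 to 0.531 CPM in the 3, 0.524 in m115 and 0.975 to 3.73 in the other 7. Rnf39 stood at 0.813 to 2.40 CPM, 0.449 and 2.93 to 6.60 CPM in the same order, and Ptx4, a pentraxin, at 0.0945 to 0.549, 0.175 and 0.906 to 3.56 CPM. The higher genes were Zfp871, at 10.3 to 34.1 CPM in the 3, 16.03 in m115 and 1.29 to 12.4 in the other 7, and Zfp983, at 6.96 to 9.60, 8.45 and 0.887 to 6.28 CPM. In both of these m115 lay above the other 7.

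The listed gene groups of the window mostly overlapped. Their counts stand beside 4.36% of all genes tested with no overlap, 0.643% lower and 3.72% higher in the 3. Of 12 MHC class I genes past the filter, 2 were lower in the 3 with no overlap (H2-Q2 and H2-T24), and the median difference was -0.35, beside -0.02 over all genes. The abundant class I genes H2-D1 (28.8 to 46.4 CPM and 23.2 to 48.3 CPM) and H2-K1 (12.8 to 20.6 and 11.2 to 21.5 CPM) overlapped. Of 8 class II and peptide-loading genes 0 separated the libraries. Of 36 class III genes, the stretch between class I and class II that holds complement genes, 2 did, C4a and Clic1. C4b, the expressed complement C4 gene, overlapped at 5.60 to 9.13 and 3.86 to 11.4 CPM. Of the 5 genes around Glo1 0 separated the libraries, and of 27 neuronal and glial genes of the window 2 did, Pkd1 and Mapk14, both higher in the 3. Gabbr1, which encodes a subunit of the GABA-B receptor and is among the most abundant genes of the window, stood at 989 to 1055 CPM in the 3 and 853 to 1150 in the 8. Genes outside the window listed as variable between strains gave 0 of 4.

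Outside the window, 655 of 15032 genes did not overlap (4.36%), of which 91 were lower and 564 higher in the 3. With totals in place of TMM the same count was 442, of which 164 were lower, so the share of lower genes was 37.1% rather than 13.9%. The median of all genes moved by only -0.01 between these scalings. The highest gaps, after the 6 copies, belonged to Gm37490, lower in the 3 at 0.188 to 0.378 CPM against 0.968 to 3.31 CPM, and to genes higher in the 3. Gm37490 lies inside Sdccag8, and A930036I15Rik and Gm43389 likewise overlap Ank2 and Klhl7 on their own strand.

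Htr2c, the serotonin 2C receptor gene on chromosome X, stood at 222 CPM in m47, 254 in m73 and 242 in m57. In the 8 it stood at 161 CPM in m115, 76.3 in m49, 77.9 in m74, 98.8 in m101, 111 in m44, 135 in m61, 149 in m89 and 71.4 in m83. The difference of medians was 1.21. Kcnt2, a sodium-activated potassium channel, stood at 25.9 to 44.9 CPM in the 3 and 6.41 to 16.98 CPM in the 8. Hgf, hepatocyte growth factor, stood at 4.50 to 5.69 and 0.488 to 3.24 CPM. Nyap2 stood at 31.6 to 45.3 and 7.12 to 24.2 CPM, and Slitrk4, a synaptic adhesion protein, at 51.5 to 70.4 and 20.4 to 39.3 CPM. Usp53 stood at 20.97 to 21.6 and 5.85 to 16.5 CPM. The 7 further genes of the 20 with the largest gaps, Crispld1, Zfp971, Gm14403, Itga8, Gm9801, A930036I15Rik and Gm43389, were higher in the 3, with differences from 0.76 to 2.45. In Htr2c, Kcnt2, Hgf, Nyap2, Usp53, Slitrk4, Zfp971, Gm14403, A930036I15Rik and Gm43389, m115 and m89 were the 2 highest of the 8. In Crispld1, Itga8 and Gm9801 they were not.

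A length measure moved with the higher genes. The 572 genes higher in the 3 with no overlap had a median exon length of 8770 bases, and 248 of the 571 with a length were in the longest 10% of tested genes. The 99 lower genes had a median of 2429 bases, with 31 in the shortest 10%, and all tested genes had 4349. The median level of the longest 10% minus that of the shortest 10%, each gene relative to its own median over the 11 libraries, was 0.24 to 0.43 in the 3. It was 0.43 in m115, 0.23 in m89 and from -0.63 to -0.07 in the other 6. Of the 572 higher genes, m115 was the highest of the 8 in 348 and m89 in 156. The part of this measure in the differences was not tested. The 8 higher genes of the window had a median length of 5448.5 bases and the 8 lower ones 2181.5 bases. All 356 tested genes of the window had a median of 3440 bases, with 42 in the shortest 10% and 19 in the longest 10%.

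Total counts ran from 31066179 to 42681692 in the 3 and from 24840981 to 48825783 in the 8, and mitochondrial transcripts took 3.27% to 4.41% and 2.90% to 7.21% of them. The summed CPM of the listed markers of projection neurons (2158 to 4249 and 2050 to 5152), cholinergic neurons, cortical glutamatergic neurons, oligodendrocytes, astrocytes, microglia, vessels, ependyma, and neuroblasts and dividing cells overlapped between the 3 and the 8, as did those of interferon-induced and sex-linked genes. Of the members of these lists, 0 separated the 3 libraries from the 8. The sex list adds Xist to genes of chromosome Y, so its sum cannot tell the sexes apart. In bulk tissue, fewer cells of a type and less RNA per cell cannot be told apart.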

How the data were processed

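PolyA RNA libraries of 11 accumbens shell samples were analysed from 1 table of gene counts. The table holds the authors' raw read counts for 52550 genes, as deposited, with no normalization. The submitters' processing notes name bcl2fastq 2.17.1.14, TopHat2 2.0.14, Bowtie2 2.1.0, HTSeq 0.6.1 and the build mm10, and per the labels' protocols the kit keeps strand. How reads with several matches were counted, and the annotation release, are not stated there. The design text names 12 samples, of which 1 was dropped for quality.

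From these counts, CPM were computed on library sizes scaled with TMM in edgeR 4.0.16 (R 4.3.3; factors 0.908 to 1.06). Genes with at least 1 CPM in 3 libraries were kept, which left 15388. Positions are from GENCODE M21, which matched 52403 IDs; the 147 unmatched IDs held 0.0112% to 0.0214% of counts. Copies were matched to parents with blastn 2.17.0. The sequences of 1 pair are not reported here. No p-value was computed, because the labels put no sample in a group and the split was made on measured values; the range calculation was tested on simulated data. The 3 libraries, the lists and the settings were chosen with earlier results of these data known. Genes named are the copies and parents, the window genes with no overlap (up to the 25 with the largest gap), the 20 with the largest gap elsewhere, listed genes and the 5 most abundant window genes whose ranges overlap; others are marked where named.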

Additional observations from a re-analysis of the deposited data

How the results depend on the processing

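With DESeq2 1.42.0 size factors, totals, pseudocounts of 1 or 0.1 CPM, no filter, coding genes only or a window of 15 to 45 Mb, where run, the counts of genes with no overlap stayed within 1.5 times of those reported: 14 to 23 in the window and 442 to 814 elsewhere. At least 5 CPM in 3 libraries left 10 window genes, with 278 tested. Asking also for medians at least 1 apart left 1 gene (0.281%) in the window and 129 elsewhere. In windows of 10 Mb, 48.5% had a higher share than 20 to 30 Mb and 42.2% than 30 to 40 Mb. Leaving out each library in turn gave 16 to 51 window genes (4.51% to 14.4%), 668 to 1684 elsewhere, and 6 to 8 copies with parents on chromosome 17. The copies numbered 6 under each scaling, pseudocount and identity limit (95% and 99%, chosen after seeing the data). Of 540 values of 36 named genes with no overlap, 7 overlapped, 6 with totals and 1 (Zfp763) with DESeq2 factors. None changed sign. Most of the 540 could not have failed, since leaving out a library or changing the pseudocount cannot make separate ranges overlap. Only the changes of scaling could, and all 7 came from them. No paired analysis was possible because the labels put no sample in a group. With 1 to 3 reads per library, levels under about 0.1 CPM cannot be told from 0.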

Other observations

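Copies whose parents lie on other chromosomes were also near 0 in some libraries and high in others, but along other lines than the 3 and the 8; they were picked after their values were seen and are given as values. Gm13394, a copy of Gapdh on chromosome 2 with 99.9% identity, stood at 0.125 CPM in m47, 0.236 in m73, 1.20 in m74 and 0.271 in m44, and at 71.1 to 110 CPM in the other 7. Gm15459, a copy of the chaperone gene Hspa8 on chromosome 5, stood at 71.1 CPM in m47, 77.3 in m73, 106 in m74 and 66.3 in m83, and at 0.355 to 1.92 CPM in the other 7. Rpsa-ps10 stood at 25.4 CPM in m73, 25.1 in m57, 33.3 in m74, 55.5 in m61 and 28.8 in m89, and at 0.0658 to 1.28 CPM in the other 6. Gm15772, a copy of Rpl26, stood at 12.4 CPM in m73, 12.3 in m101 and 16.999 in m44, and at 0.0578 to 0.332 CPM in the other 8.

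Gm6166, a copy of the fatty acid binding protein gene Fabp5, stood at 6.15 to 7.13 CPM in the 3 libraries, 10.7 in m115 and 14.6 in m49, and at 0 to 0.665 CPM in the other 6. Gm6969, a copy of Cox7a2l, whose start is chr17:83501918, stood at 7.16 CPM in m73, 8.32 in m57, 7.44 in m74 and 7.75 in m44, and at 0 to 0.0499 CPM in the other 7. It thus divided m47 from m73 and m57, which the 6 copies with no overlap did not.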
